A study of Rattus norvegicus with 26 samples.

Results

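rno-miR-1949 and rno-miR-7a are 2 of the 677 miRNAs on the rat array, and both gave weak signals in liver. They were chosen by name because both were higher after 2/3 than after 1/3 partial hepatectomy (PH) at 36 hours, so their values at 36 hours are given as a description, without a test. RNA from the right liver lobes of 26 male Sprague-Dawley rats was hybridized to single-colour arrays, 1 rat per array. There were 3 normal livers that had lost no tissue, 2 livers at 6 hours after 1/3 PH, and 3 livers in each of the other 7 groups: 2/3 PH at 6 hours, and each operation at 12, 24 and 36 hours. No genetic change or drug was used in any group. The sample titles gave the groups and times. For 10 arrays the source label gave a time 1 or 2 hours later than the title, and the protocol label of the normal livers named a sham operation where the study's methods describe no resection. The livers were whole tissue, so fewer cells of a type and less RNA per cell cannot be told apart.

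A miRNA guides the silencing complex to messenger RNAs that pair with its seed, the bases from the second to the eighth, and lowers their stability and translation. miR-7 is an old and strongly conserved family that is enriched in neurons and in endocrine cells such as those of the pancreatic islet, and the epidermal growth factor receptor and insulin receptor substrate messages are among its known targets. miR-1949 is a much less studied miRNA. After 2/3 PH most remaining hepatocytes replicate their DNA about a day after surgery, whereas 1/3 PH sets off little replication, and 1/3 PH served as the surgical control.

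The mature sequences are shown because they set out how the members relate to each other and to miR-7b, which is also on the array. They come from RefSeq (build GRCr8), and the capitals mark the seed. The array's names were matched to RefSeq by name alone, with miR-7a taken as miR-7a-5p. The probe sequences were not used here, so how well the probes tell miR-7a from miR-7b was not determined.

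miR-1949: uAUACCAGgaugucagcauaguu
miR-7a: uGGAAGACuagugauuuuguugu
miR-7b: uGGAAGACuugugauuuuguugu

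Among 693 mature rat names in that table, the seed AUACCAG belonged to miR-1949 alone, and GGAAGAC to miR-7a and miR-7b. Counted from the 5′ end, miR-7a and miR-7b, each of 23 bases, differ at A10U, outside the seed. miR-1949 lies at chr18:27429753-27429775 on the plus strand, within the span of Matr3, the gene of the nuclear RNA-binding protein matrin 3. miR-7a is made from a pair of loci. The one at chr17:6278710-6278732 lies on the plus strand within the span of Hnrnpk, which encodes another nuclear RNA-binding protein, and the one at chr1:142215818-142215840, also on the plus strand, lies within the long non-coding RNA LOC120099863, 8659 bases from the nearest coding gene, Aen. Whether these positions are exonic or intronic was not determined, since the annotation used gives only gene spans. The mature sequence is the same from both loci, so the array reads their sum.

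The levels below are percentages of each array's reference signal, which is the 75th percentile of the 109 probes that stood well above background on all arrays. A signal below the dimmest probe that was well above background on the array was set to that floor. Total signal ran from 39148.8 to 68366.3 units on 25 arrays. It was 12434.5 units on replicate 2 of 1/3 PH at 12 hours, where both members lay at the floor. The arrays sat on 6 slides that were scanned on 3 days. All arrays of 2/3 PH at 24 hours and of 1/3 PH at 36 hours shared 1 slide of the first day, and no scan day held both operations at 36 hours. The liver miRNA miR-122 gave 10306.2 to 52431.6 units on the 26 arrays, and of the other liver markers miR-192 and miR-194 were also detected on every array and miR-148b-3p on 24.

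miR-1949 was detected on 25 of 26 arrays, in 8 of 9 groups on every array, and was set to the floor on 4. Its signal ranged from 5.71 to 77.4 units (median 22.4), or from 0.486 to 7.42 times the floor (median 1.80). miR-7a was detected on all 26 arrays and was at the floor on 1. Its signal ranged from 6.09 to 33.3 units (median 17.1), or from 0.940 to 3.46 times the floor (median 1.43). Most levels of both members therefore lay within a few fold of the weakest signal that the array could tell from background. Of their relatives, miR-7b and the opposite arms miR-7a-1* and miR-7a-2* were detected on no array.

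Each member was read by a pair of probes with 10 spots each, and 1 probe of each pair carried nearly all of the signal. Over the arrays the brighter probe of miR-1949 averaged 4.45 to 69.97 units, with 230 of 260 spots (88.5%) well above background, and the dimmer one averaged -1.90 to 7.46 units, with 5 of 260 spots (1.92%). For miR-7a the brighter probe averaged 4.70 to 30.0 units, with 200 of 260 spots (76.9%) well above background, and the dimmer one -0.798 to 3.50 units, with 4 of 260 (1.54%). The levels thus rest on a single probe sequence for each miRNA. No spot was saturated. Spots of the brighter probe on 1 array varied by a median coefficient of variation of 11.6% for miR-1949 (4.58% to 36.0%) and 11.7% for miR-7a (4.89% to 36.1%).

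**Figure D1:**
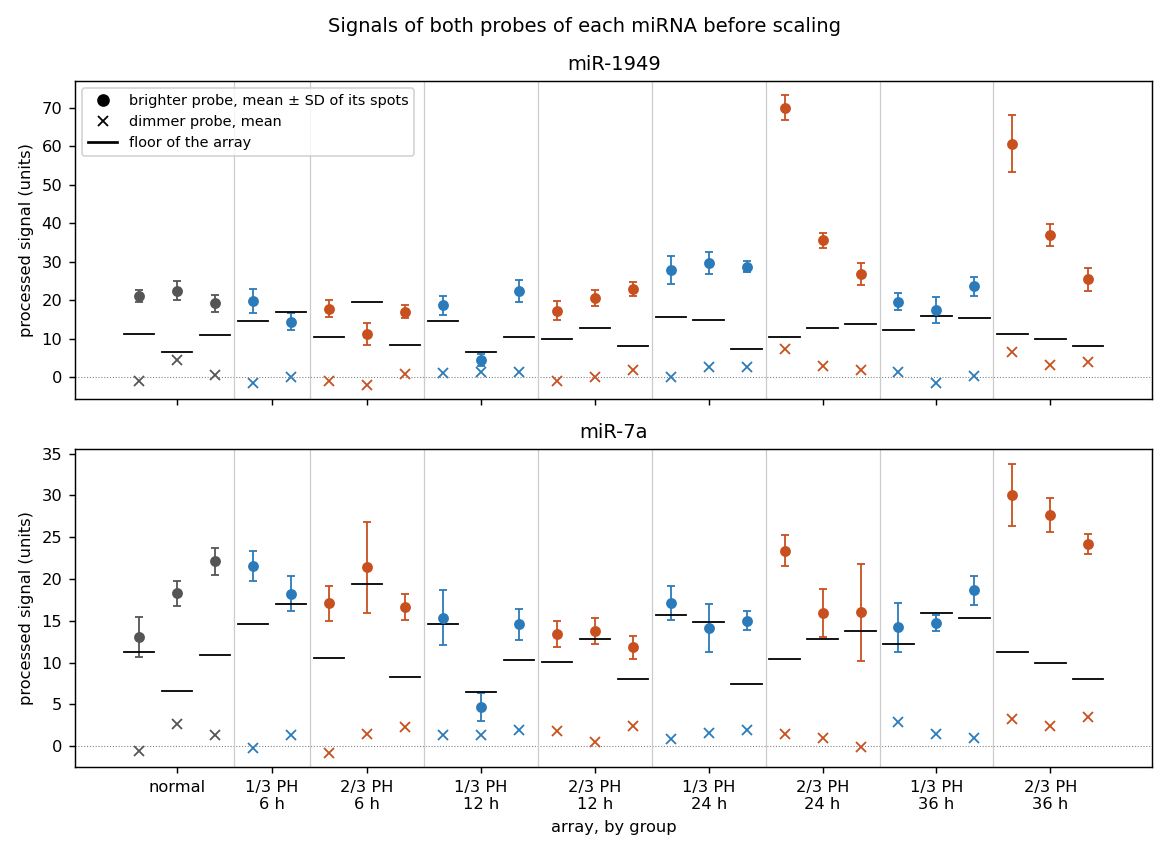
Processed signal (units, before scaling) of the brighter probe (points, mean ± SD of its spots) and of the dimmer probe (crosses, mean) on each array, by group, with the array's floor as a horizontal bar. The brighter miR-1949 probe reached 69.97 units on an array of 2/3 PH at 24 hours, and the dimmer probes stayed at or below 7.46 units on all arrays.

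At 36 hours both members were high after 2/3 PH and near the normal level after 1/3 PH. In normal liver the level of miR-1949 was 8.84%, 11.6% and 6.45% of the reference signal in replicates 1 to 3. At 36 hours after 1/3 PH it was 8.75%, 7.15% and 8.43%, with the second of these at the floor. At 36 hours after 2/3 PH it was 26.3%, 15.5% and 16.6%. All 3 livers after 2/3 PH lay above all 3 after 1/3 PH and above all 3 normal livers. The geometric group mean of miR-1949 was 18.9% after 2/3 PH (log2 level -2.40 ± 0.41, SD, n = 3) and 8.08% after 1/3 PH (-3.63 ± 0.15, SD, n = 3), a ratio of 2.34. Against normal liver (8.72%, log2 level -3.52 ± 0.42, SD, n = 3) the ratio was 2.17 after 2/3 PH and 0.927 after 1/3 PH.

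The level of miR-7a was 5.51%, 9.07% and 7.66% in normal liver. It was 7.13%, 7.24% and 6.89% at 36 hours after 1/3 PH, the narrowest spread of any group of 3. It was 13.0%, 11.7% and 15.7% at 36 hours after 2/3 PH, again with no overlap with 1/3 PH or with normal liver. The geometric means were 13.4% (log2 level -2.90 ± 0.22, SD, n = 3) after 2/3 PH and 7.09% (-3.82 ± 0.04, SD, n = 3) after 1/3 PH, a ratio of 1.89. Against normal liver (7.26%, log2 level -3.78 ± 0.37, SD, n = 3) the ratio was 1.84 after 2/3 PH and 0.976 after 1/3 PH. On the brighter miR-7a probe all 10 spots stood well above background on each array of 2/3 PH at 36 hours. On the arrays of 1/3 PH 6, 1 and 10 spots did. The floor was lower on those arrays of 2/3 PH (8.02 to 11.23 units) than on those of 1/3 PH (12.25 to 15.96 units). The spot counts depend on each array's background, so no difference between the operations is read from them. Of the 144 miRNAs that were detected throughout 1 group or more, 13.9% had every array of 2/3 PH above every array of 1/3 PH at 36 hours, and 26.4% had every array of 2/3 PH at 36 hours above every normal liver. The rule used this contrast, so nothing is read from these shares.

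Slide and operation cannot be told apart at 36 hours, since no slide or scan day held both operations. On the slide that held replicates 1 and 2 of 2/3 PH at 36 hours and a normal liver, 2/3 PH was 3.13-fold of normal for miR-1949 and 1.61-fold for miR-7a. On the third scan day, with 1 array of each group, the ratios were 1.43 and 1.73. These ratios use the arrays of the rule and rest on 2 arrays against 1 and on 1 against 1, so nothing is read from them.

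**Figure D2:**
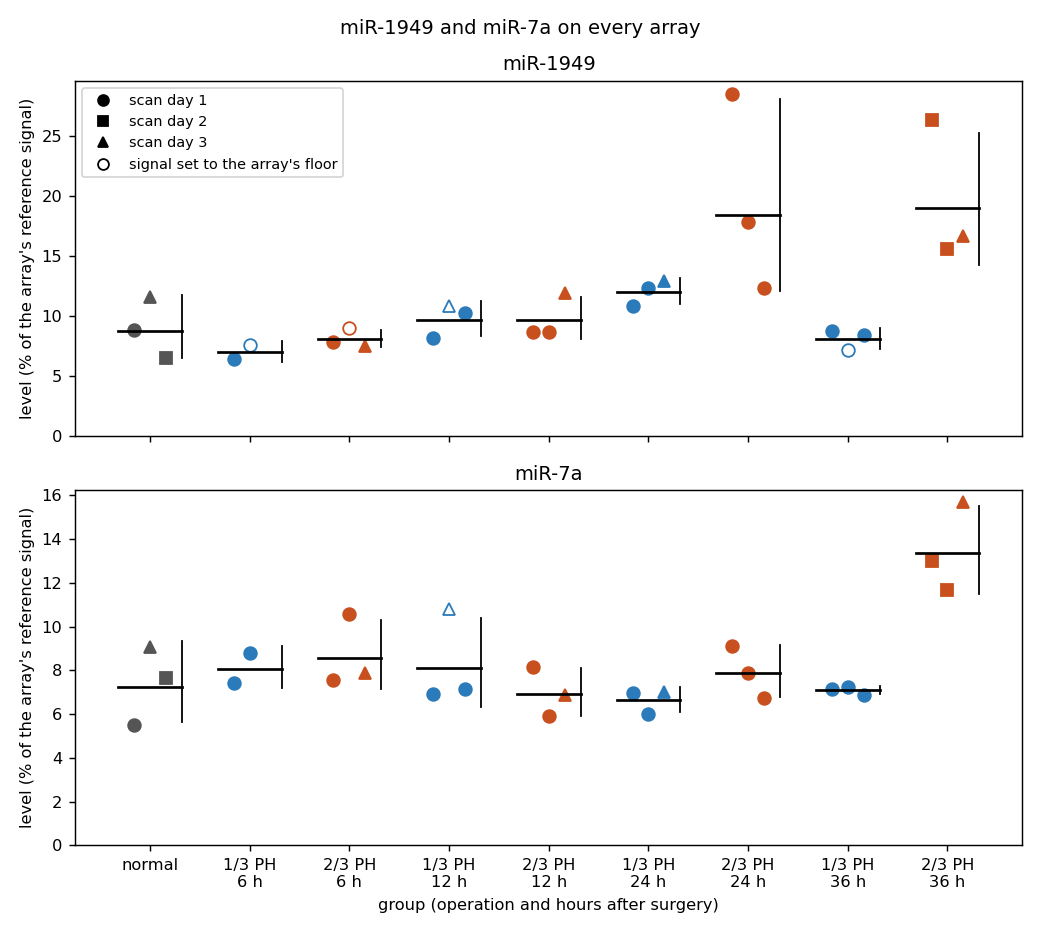
Level of miR-1949 and miR-7a on each array (percent of the array's reference signal) by group, with marker shape for the scan day and open markers for signals set to the floor. Horizontal bars are geometric means and vertical bars 1 SD of the log2 levels, and the 3 arrays of 2/3 PH at 36 hours lie above all normal livers for both members.

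At 24 hours after 2/3 PH miR-1949 rose above normal liver in the reported setting, and miR-7a did not pass the test. Whether the members differed from each other was not tested. At 24 hours after 2/3 PH the level of miR-1949 was 28.4%, 17.8% and 12.3%, against 10.8%, 12.3% and 12.9% after 1/3 PH. All 3 livers after 2/3 PH were above the highest normal liver, while 1 of them fell within the range after 1/3 PH. Across all arrays fitted together by limma, miR-1949 was 2.11-fold of normal liver at 24 hours after 2/3 PH (95% interval 1.45 to 3.07, log2 difference 1.08 ± 0.26 SE, n = 3 and 3, adjusted p = 0.0106). By the same test 18.1% of the 144 miRNAs were called in this comparison, 9.72% as higher and 8.33% as lower, and 20.8% had every array above every normal liver. miR-1949 was thus 1 of 14 miRNAs called as higher. No slide held both groups, so slide and group cannot be told apart here either. On the first scan day alone, with 3 arrays against 1 on another slide, the ratio was 2.08.

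The call rested on single arrays and on the choice of scaling, background correction or values used. It was lost without replicate 1 of 2/3 PH at 24 hours, the array with the level of 28.4% (log2 difference 0.76, limma adjusted p = 0.067), without normal replicate 3 (0.86, adjusted p = 0.0514), and under 5 of the other processing choices, with log2 differences from 0.32 to 1.21 that all kept the direction.

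After 1/3 PH at 24 hours miR-1949 was 1.37-fold of normal liver (95% interval 0.944 to 2.00, limma adjusted p = 0.577), which did not pass the test that called 0.694% of the miRNAs (11.1% at an unadjusted p under 0.05). Between the operations at 24 hours it was 1.54-fold higher after 2/3 PH (95% interval 1.06 to 2.23, unadjusted p = 0.0272, limma adjusted p = 0.301), and this did not pass either. That comparison called 2.78% of the miRNAs, all higher after 2/3 PH, and 10.4% at an unadjusted p under 0.05, and 9.03% had every array of 2/3 PH above every array of 1/3 PH. No slide held both operations at 24 hours. Slide and operation therefore cannot be told apart in any comparison between the operations at that time. Whether the operations differed more at 24 hours than at 6 and 12 hours was tested directly, and the log2 difference was 0.51 ± 0.32 SE for miR-1949 and 0.32 ± 0.25 SE for miR-7a (limma adjusted p = 0.653 for both). From 24 to 36 hours the geometric mean of miR-1949 moved from 18.4% to 18.9% after 2/3 PH, with overlapping arrays. After 1/3 PH it moved from 12.0% to 8.08%, and there the arrays did not overlap. Both moves use the arrays of the rule and were not tested. No slide held 1/3 PH at both times, and 1 array at 36 hours was at the floor. The share of all 144 miRNAs with arrays that did not overlap was not determined, so nothing is read from this gap.

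At 24 hours miR-7a lay within the range of normal liver after 1/3 PH and reached little beyond it after 2/3 PH. Its level was 9.13%, 7.89% and 6.76% after 2/3 PH and 6.97%, 5.99% and 7.01% after 1/3 PH. These groups overlapped each other and the normal livers. Against normal liver it was 1.08-fold after 2/3 PH (95% interval 0.812 to 1.45, limma adjusted p = 0.790) and 0.914-fold after 1/3 PH (0.685 to 1.22, adjusted p = 0.926). Between the operations it was 1.19-fold (95% interval 0.888 to 1.58, adjusted p = 0.857). From 24 to 36 hours after 2/3 PH the geometric mean went from 7.87% to 13.4%, a ratio of 1.70 with no overlap between the arrays. This ratio uses the arrays of the rule and was not tested. The share of all 144 miRNAs with such a gap was not determined, so nothing is read from it.

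**Figure D3:**
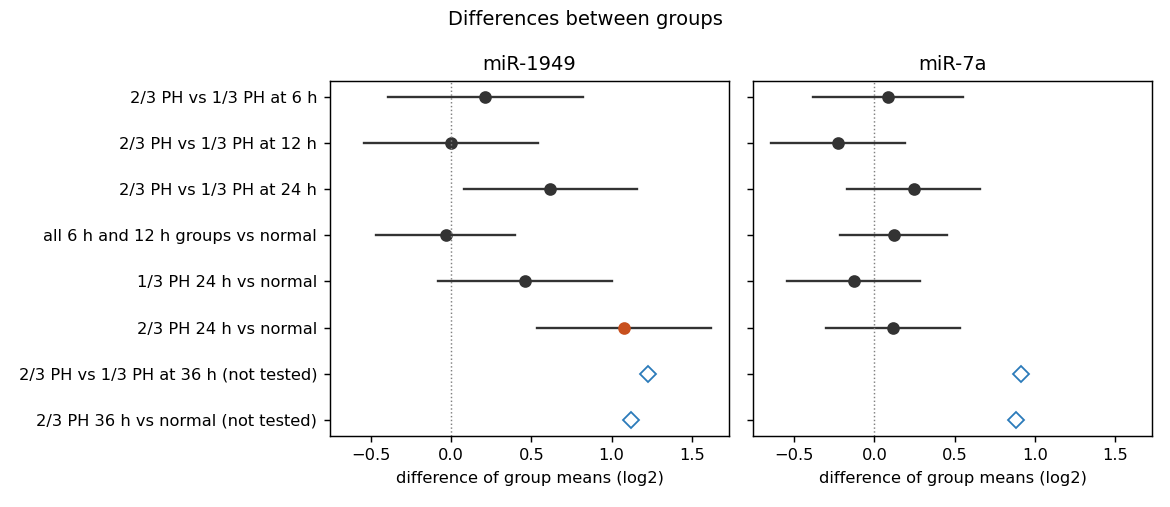
Differences of group means (log2) for both members, with 95% intervals from limma where a test was made (points) and without an interval at 36 hours, where the members were chosen (open diamonds). The interval of 2/3 PH at 24 hours against normal liver, the filled orange point at 1.08, lies above 0 for miR-1949.

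In the first 12 hours neither member passed the test. At 6 hours the level of miR-1949 was 6.39% and 7.60% after 1/3 PH, the second at the floor, and 7.84%, 8.96% and 7.52% after 2/3 PH, where the second was at the floor and not detected. At 12 hours it was 8.16%, 10.8% and 10.3% after 1/3 PH, with the second at the floor of the dim array, and 8.69%, 8.69% and 11.9% after 2/3 PH. All of these except the last lay below the highest normal liver. The level of miR-7a at 6 hours was 7.43% and 8.80% in the 1/3 PH livers, while the 2/3 PH livers gave 7.55%, 10.6% and 7.89%. At 12 hours 1/3 PH gave 6.90%, 10.8% (floor of the dim array) and 7.14%, and 2/3 PH gave 8.15%, 5.93% and 6.86%. The miR-7a levels of 2/3 and 1/3 PH overlapped at both times.

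The mean of the 4 groups at 6 and 12 hours was 0.977-fold of normal liver for miR-1949 (95% interval 0.724 to 1.32, limma adjusted p = 0.946) and 1.09-fold for miR-7a (0.863 to 1.37, adjusted p = 0.686). That test called 4.17% of the miRNAs, all lower than in normal liver, and 18.8% at an unadjusted p under 0.05. Between the operations limma called 0 of 144 miRNAs at either time, with 3 (2.08%) and 9 (6.25%) at an unadjusted p under 0.05 at 6 and 12 hours. miR-1949 was 1.16-fold at 6 hours (95% interval 0.762 to 1.76, adjusted p = 0.946) and 0.999-fold at 12 hours (0.686 to 1.45, adjusted p = 0.996) after 2/3 relative to 1/3 PH. miR-7a was 1.06-fold (0.768 to 1.46, adjusted p = 0.946) and 0.854-fold (0.641 to 1.14, adjusted p = 0.774). These intervals reach to both sides of no change, so small early differences were not detectable here. Without the dim array the log2 difference at 12 hours was 0.08 for miR-1949 and -0.02 for miR-7a, and neither was called.

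Ordered by geometric mean over the 9 groups, miR-1949 was highest in 2/3 PH at 36 hours, followed by 2/3 PH at 24 hours, 1/3 PH at 24 hours, 1/3 PH at 12 hours, 2/3 PH at 12 hours, normal liver, 2/3 PH at 6 hours, 1/3 PH at 36 hours and 1/3 PH at 6 hours. Of these neighbours, 1/3 PH at 24 hours and 1/3 PH at 12 hours did not overlap, and all other neighbours did. That gap was only 10.83% against 10.79%, and the latter is the floor of the dim array. The same floor value enters the mean of miR-7a for 1/3 PH at 12 hours. For miR-7a the order was 2/3 PH at 36 hours, 2/3 PH at 6 hours, 1/3 PH at 12 hours, 1/3 PH at 6 hours, 2/3 PH at 24 hours, normal liver, 1/3 PH at 36 hours, 2/3 PH at 12 hours and 1/3 PH at 24 hours. Here 2/3 PH at 36 hours stood clear of the group next to it, and no other neighbours were separated. The members were chosen by a high level in that group, so its place at the top is a description. For neither member was the share of all 144 miRNAs with such gaps determined, so nothing is read from them. Over the 9 group means the log2 levels of both members had a Pearson r of 0.51, over the 26 arrays 0.49, and over the 7 group means without 36 hours -0.25. These points share the arrays' scaling and the groups of the rule.

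The miRNAs most like miR-1949 over the 9 group means included members of the miR-106b and miR-17 clusters, which are known to favour entry into S phase. They were miR-93 (Pearson r = 0.91 over group means and 0.86 over the 26 arrays), miR-34a (0.88 and 0.70), miR-345-5p (0.87 and 0.66), miR-20a (0.86 and 0.64) and miR-25 (0.86 and 0.61). miR-34a, by contrast, is a p53 target that restrains the cell cycle. miR-93 was detected on 25 arrays and the others on all 26. In normal liver the mean log2 level of miR-93 was -3.35, about as low as that of miR-1949 (-3.52). Without both groups of 36 hours, r over the 7 remaining means was 0.84 for miR-93, 0.88 for miR-34a, 0.81 for miR-345-5p, 0.81 for miR-20a and 0.74 for miR-25. These 7 means are among the 9 by which the 5 were picked, so the values are a description. At 24 hours after 2/3 PH, against normal liver, miR-93 rose by 0.96, miR-34a by 1.24, miR-345-5p by 0.44, miR-20a by 0.97 and miR-25 by 0.48 on the log2 scale (limma adjusted p = 5.82e-05, 0.0010, 0.0482, 0.0138 and 0.0439), beside 1.08 for miR-1949. Of all 144 miRNAs 9.72% were called as higher there. After 1/3 PH at 24 hours miR-34a rose by 0.94 (limma adjusted p = 0.0469), where 0.694% of all were called as higher, and the other 4 did not pass the test. These groups were among the means that picked the 5. The choice favoured such rises, so they are a description and no support for a shared course.

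The miRNAs most like miR-7a were miR-130a (r = 0.90 over group means and 0.51 over arrays), miR-15b (0.85 and 0.60), miR-743a (0.83 and 0.49), miR-3562 (0.82 and 0.42) and miR-3561-5p (0.79 and 0.55). miR-15b belongs to the miR-15/16 family, known to target cyclin messages, and miR-130a is known from haematopoietic and endothelial cells. miR-743a was detected on 20 arrays, miR-3562 on 25 and miR-3561-5p on 16. Without 36 hours the r of these 5 fell to between -0.03 (miR-15b) and 0.51 (miR-3561-5p), which is a description too. At 24 hours after 2/3 PH miR-15b rose by 0.52 on the log2 scale against normal liver (limma adjusted p = 0.0147), and the other 4 did not pass. Of all 144 miRNAs 9.72% were called as higher there, and both groups were among the means that picked the 5.

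**Figure D4:**
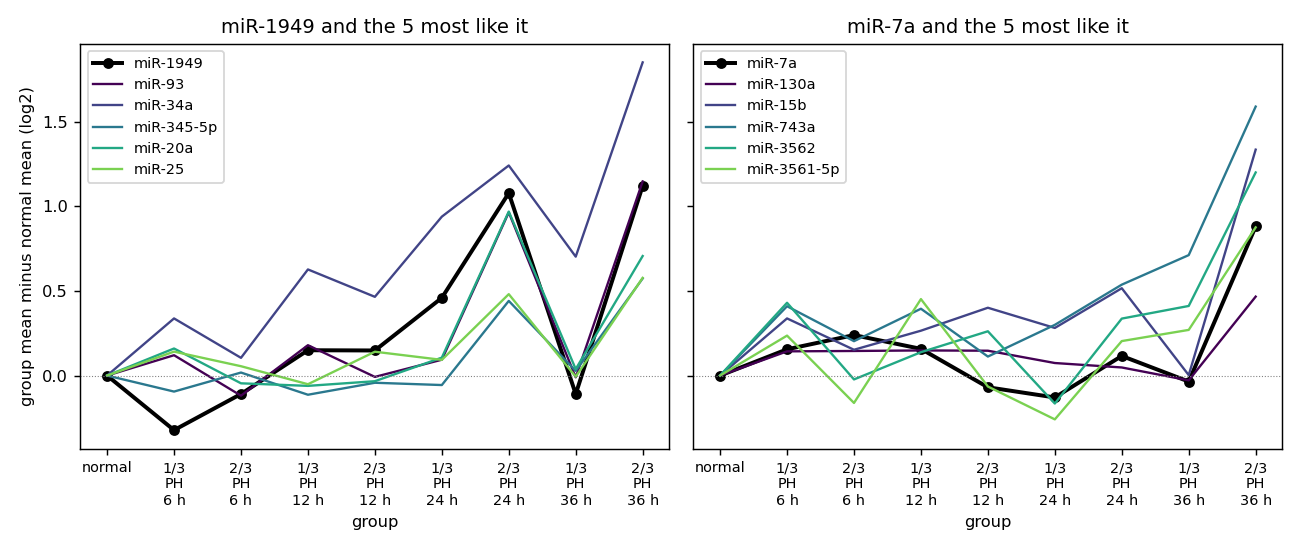
Difference of each group mean from the normal mean (log2) for each member (black, with points) and the 5 miRNAs with the highest r with it over the 9 group means (coloured lines). Groups are in order of time and the lines only join them; miR-1949 and miR-93 both peak after 2/3 PH at 24 hours and again at 36 hours, while miR-7a is near 0 in all groups but 2/3 PH at 36 hours.

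A list of miRNAs linked to proliferation and markers of other cell types were set beside the members. At 24 hours after 2/3 PH, 8 of 13 miRNAs of the proliferation list in the fit rose against normal liver and none fell, where 9.72% of all 144 miRNAs rose, with a median log2 difference of 0.52 against 0.05 over the 144. The list holds miR-16 and miR-15b, the latter among the 8, whose family is known to target cyclin messages. The count is therefore not one of growth-favouring miRNAs alone. Among them were miR-18a (1.57), miR-17-5p (1.08) and miR-21 (0.61), the last a growth-associated miRNA of many tissues. The study chose several of this list on these livers, so its direction is not independent evidence. Between the operations at 24 hours 3 of the 13, miR-17-5p, miR-18a and miR-93, were higher after 2/3 PH, beside 2.78% of all 144. In the first 12 hours and at 24 hours after 1/3 PH none of the 13 passed the test against normal liver. Their summed level was 4752.5% to 5115.2% of the reference signal at 24 hours after 2/3 PH and 4516.4% to 6264.7% at 36 hours, against 3025.7% to 3878.0% in normal liver.

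Of 7 neuronal and neuroendocrine miRNAs, the cell types in which miR-7 is enriched, 6 were detected on no array: miR-375 (pancreatic islet), miR-124, miR-9, miR-9*, miR-153 and miR-132. The one in the fit was miR-212, which passed no test. The summed level of the 7, in which signals below 0 were taken as 0, was 52.2% to 74.4% at 36 hours after 2/3 PH, 29.2% to 73.5% after 1/3 PH and 21.3% to 47.7% in normal liver. At 12 hours after 1/3 PH it was 9.02% to 77.5%, which covers all of these ranges. The sum holds the signals of the 6 undetected miRNAs, so nothing is read from it.

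Some biliary and epithelial miRNAs of the miR-200 family were also higher at 24 hours after 2/3 PH. Of 3 in the fit, miR-200b (0.87) and miR-429 (1.08) rose on the log2 scale against normal liver, where 9.72% of all 144 miRNAs rose, and miR-200c and miR-141 were detected on no array. The summed level of the 5 was 34.2% to 49.8% at 24 hours after 2/3 PH, 42.4% to 48.3% at 24 hours after 1/3 PH and 14.8% to 29.9% in normal liver. At 12 hours after 1/3 PH it was 46.6% to 61.6%. In that group miR-1949 overlapped normal liver, and its highest level was that of the dim array, at the floor. The median log2 difference from normal of the 3 in the fit was 0.93 at 24 hours after 1/3 PH, 0.87 after 2/3 PH and 0.53 in the first 12 hours, beside 0.46, 1.08 and -0.03 for miR-1949. At 36 hours the summed level was 43.5% to 65.1% after 2/3 PH and 19.8% to 49.98% after 1/3 PH. Of 4 leukocyte miRNAs in the fit, miR-142-3p (-1.05) and miR-150 (-0.58) fell at 24 hours after 2/3 PH, where 8.33% of all 144 miRNAs fell, and their list summed to 67.2% to 83.7% against 94.7% to 116.2% in normal liver, with miR-142-5p detected on no array. The liver marker miR-192 fell by 0.29 in the same comparison. It was also called lower than normal over the groups at 6 and 12 hours (log2 difference -0.28, limma adjusted p = 0.0276). There 4.17% of all 144 miRNAs fell. Of 5 stellate, fibroblast and endothelial miRNAs in the fit and of 1 red cell miRNA, none passed, and miR-145 was detected on no array. The part of these cell types in the members' levels was not tested.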

How the data were processed

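The authors deposited spot intensity values from Agilent Feature Extraction 10.7.3.1, background-subtracted and not yet normalized, together with a normalized log2 table, used here as an alternative. The array design names build rn4. Spots marked as outliers were left out, spots were averaged per probe, and probes were summed per miRNA (677 miRNAs, 1644 probes). Scaling and floor were as described above. Detection was the software's call. limma 3.58.1 in R 4.3.3 was fitted to 144 miRNAs and 9 groups (17 residual degrees of freedom), with Benjamini-Hochberg adjustment over the 144 within each of 6 contrasts and 1 interaction, and calls at an adjusted p under 0.05. The procedure was tested on simulated data. Python 3.11.15, numpy 2.4.6, pandas 2.3.3 and matplotlib 3.10.9 were used.

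The members and lists were chosen with earlier results of these data known. Named miRNAs are the members, other miR-7 miRNAs on the array or with the same seed, the 5 most like each member over the group means, and list members. Alternatives were other scalings, floors, background corrections, filters, and slide or scan day as a block, and each array was left out in turn. The number of arrays limits the precision. The p-values rest on the spread within groups, which limma pooled over the groups. That spread mixes differences between rats with differences between arrays. In groups split over slides or scan days it also holds differences between those.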

Additional observations from a re-analysis of the deposited data

How the results depend on the processing

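The differences between operations at 36 hours kept their direction under all alternatives run. They moved beyond the spread for miR-1949 with the 75th percentile over all probes (1.72 on the log2 scale, from 1.23) and normexp background correction (0.72), and for miR-7a with the 75th percentile over all probes (1.40, from 0.92) and the software's total gene signal (0.46). Without 1 array each they ran from 0.99 to 1.37 and from 0.80 to 1.01. The call of miR-1949 at 24 hours after 2/3 PH against normal liver was lost with no scaling (1.002, adjusted p = 0.439), the 75th percentile over all probes (0.62, adjusted p = 0.657), quantile normalization (0.91, adjusted p = 0.0752), normexp (0.32, adjusted p = 0.997) and the deposited log2 values (1.21, adjusted p = 0.607), and held with the total gene signal, a floor of 1 unit, detection on at least 1 array, scan day as a fixed block (1.11, adjusted p = 0.0216) and slide as a random block (1.10, adjusted p = 0.0264). The cause was not tested. Over arrays left out the difference ran from 0.76 to 1.37.

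All other changes of sign were in differences that passed no test in the reported setting. For miR-1949 at 6 hours between operations the values were -1.06 (75th percentile over all probes), -0.0201 (total gene signal), -0.0189 (floor of 1 unit) and -1.96 (deposited values), and at 12 hours 0.49 (no scaling), 0.73 (75th percentile over all probes), 0.42 (quantile), 0.0592 (floor of 1 unit) and 0.0063 (slide as a random block). For the first 12 hours against normal they were 0.22 (total gene signal) and 0.36 (normexp). For miR-7a at 6 hours they were -0.0945 (no scaling), -1.18 (75th percentile over all probes), -0.0505 (total gene signal) and -0.0122 (slide as a fixed block), at 12 hours 0.26, 0.51 and 0.32 (no scaling, 75th percentile over all probes, quantile), and at 24 hours -0.19 (75th percentile over all probes). Against normal they were -0.18 (no scaling) and -0.0166 (quantile) in the first 12 hours, 0.0278 (total gene signal) at 24 hours after 1/3 PH and -0.35 (75th percentile over all probes) after 2/3 PH. With the 75th percentile over all probes the median difference of all miRNAs between operations was -1.32 at 6 hours, 0.63 at 12 hours and -0.42 at 24 hours. In the reported setting these medians were -0.05, -0.10 and 0.01.

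With single arrays left out, miR-1949 ran from 0.09 to 0.34 between operations at 6 hours, from -0.15 to 0.0777 at 12 hours and from 0.31 to 0.91 at 24 hours, and against normal from -0.25 to 0.17 in the first 12 hours and from 0.24 to 0.67 at 24 hours after 1/3 PH. miR-7a ran from -0.0668 to 0.21, from -0.34 to -0.02 and from 0.14 to 0.35 between operations, and against normal from -0.0786 to 0.28, from -0.33 to 0.0310 after 1/3 PH at 24 hours and from -0.0835 to 0.28 after 2/3 PH. Called miRNAs went from 26 to between 0 and 27 for 2/3 PH at 24 hours against normal, from 4 to between 0 and 6 between operations at 24 hours, from 6 to between 0 and 8 in the first 12 hours, from 1 to between 0 and 2 after 1/3 PH, and from 0 to 89 at 6 hours with the 75th percentile over all probes. With single arrays left out they ran from 9 to 32, from 1 to 9, from 0 to 9 and from 0 to 2 in the first 4 of these comparisons.

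miR-1949 left the fit when detection on every array was required. Slide as a fixed block could not be fitted for contrasts with 2/3 PH at 24 hours or 1/3 PH at 36 hours, which shared a slide that held no other group. No paired analysis was possible because each array came from a different rat. Signal over background limits both members, whose median signals were 1.80 and 1.43 times the floor.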
